A study of Mus musculus with 8 samples.

Results

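Voltage-gated sodium channels are described here by 9 of their subunit genes in mouse trigeminal ganglion RNA. They are the pore-forming alpha subunits Scn1a, Scn3a, Scn8a, Scn9a, Scn10a and Scn11a and the auxiliary beta subunits Scn2b, Scn3b and Scn4b. The members were every probe set that the platform annotation assigns to exactly 1 of these genes, dim probe sets included. A probe set is a group of short oligonucleotides whose readings are combined into 1 signal. This gave 23 of 45037 probe sets, and 9 of 18193 named genes. The rule itself used no measured value, although the genes were proposed with earlier results of these data known.

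The series holds 8 Affymetrix Mouse Genome arrays hybridised with total RNA, 4 labelled Ctrl and 4 labelled Exp. The labels state no genotype, strain, treatment, time or age for either group, so it is not known what separates Exp from Ctrl. One label field names the trigeminal ganglion, which holds the sensory neurons of the head, and another names brain and adrenal medulla. Nothing says that each array came from a separate animal, and p-values therefore measure the spread between these arrays, which may be technical.

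Sodium channels carry the inward current that starts and propagates the action potential. The alpha subunit is the voltage sensor, pore and inactivation gate in a single protein, and beta subunits are small membrane proteins with an immunoglobulin-like extracellular domain that adjust gating and surface level. Sensory neurons of the face use a mixture of channels that tetrodotoxin blocks and of channels that resist it, and the resistant ones are typical of nociceptors.

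All arrays had been scaled to one trimmed mean signal, 2500, and their median signals ran from 478 to 553. The number of arrays limits the precision of every comparison. Of 12 sensory neuron markers measured, 12 lay above a low-signal reference, the 95th percentile of 43 olfactory receptor probe sets (9.19 on the log2(signal + 16) scale used throughout). Of 10 central neuron markers 3 did, Neurod6 (mean 11.59), Camk2a (10.73) and Dlx1 (9.81), while Gad1, Gad2, Slc17a7 and Tbr1 did not. Of 10 chromaffin and sympathetic markers 4 did, Chgb (14.33), Chga (12.70), Th (12.34) and Pnmt (10.08), while Dbh did not. Skeletal muscle markers were uneven. Their summed deposited signal ran from 8350 to 12300 in Ctrl and from 7280 to 67500 in Exp, 7 of 16 lay above the reference (not Acta1, Actn3 or Myod1), and their mean stood 1.46 log2 units above its 8-array mean in Exp 3. Markers of Schwann and satellite glia (11 of 11 above the reference) summed to 171000 to 204000 in Ctrl and 165000 to 190000 in Exp, and their mean stood lowest in Exp 3, at -0.47. Without Egr2, the marker that varied most and was left out after its values were seen, the glial mean in Exp 3 was -0.20. Epithelial markers summed to 7470 to 9100 in Ctrl and 6150 to 13200 in Exp, with 5 of 12 above the reference and Krt5 and Krt14 not among them, and 8 of 10 endothelial and 5 of 8 erythroid markers lay above it. The signal of the Y-linked gene Eif2s3y was 12.32 to 13.46 in 5 arrays and 7.13 to 8.68 in Ctrl 3, Exp 1 and Exp 4, so both groups held arrays of either kind. In bulk RNA of this kind, fewer cells of a type and less RNA per cell cannot be told apart.

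The sodium channel subunits did not separate Exp from Ctrl. None of the 23 probe sets passed the 5% false discovery rate in limma's moderated test, where the smallest adjusted p was 0.997, and 0 had an unadjusted p below 0.05. The background in this comparison was 0% of 45037 probe sets passing, and 4.93% with an unadjusted p below 0.05. In 0 of the 23 probe sets did the Exp arrays lie wholly on one side of the Ctrl arrays, which 2.52% of all probe sets did. Of the members, 10 were higher and 13 lower in Exp, with a median log2 difference of -0.01 and a range from -0.65 to 0.45, where the median of all probe sets was 0.00.

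The confidence intervals also gave the size of difference that these arrays leave room for. Like the p-values, the intervals rest on the spread between the arrays, which may be technical. They were not adjusted for the number of probe sets. A change of 2 times, up or down, lay outside the 95% confidence interval of 18 of the 23 probe sets, or 78.3%, against 67.6% of all probe sets. It did so for 14 of the 15 members above the olfactory receptor reference (93.3%, against 94.9% of all probe sets above it) and for 4 of the 8 at or under it (50%, against 43.1%). Among probe sets of like signal the members' intervals were thus about as wide as those of others. Taking for each gene the probe set with the highest mean, its brightest, a doubling or halving lay outside it for 8 of 9 genes and a change of 1.5 times for 7 of 9. The plot of differences with their intervals shows that the widest belong to dim probe sets.

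**Figure D1:**
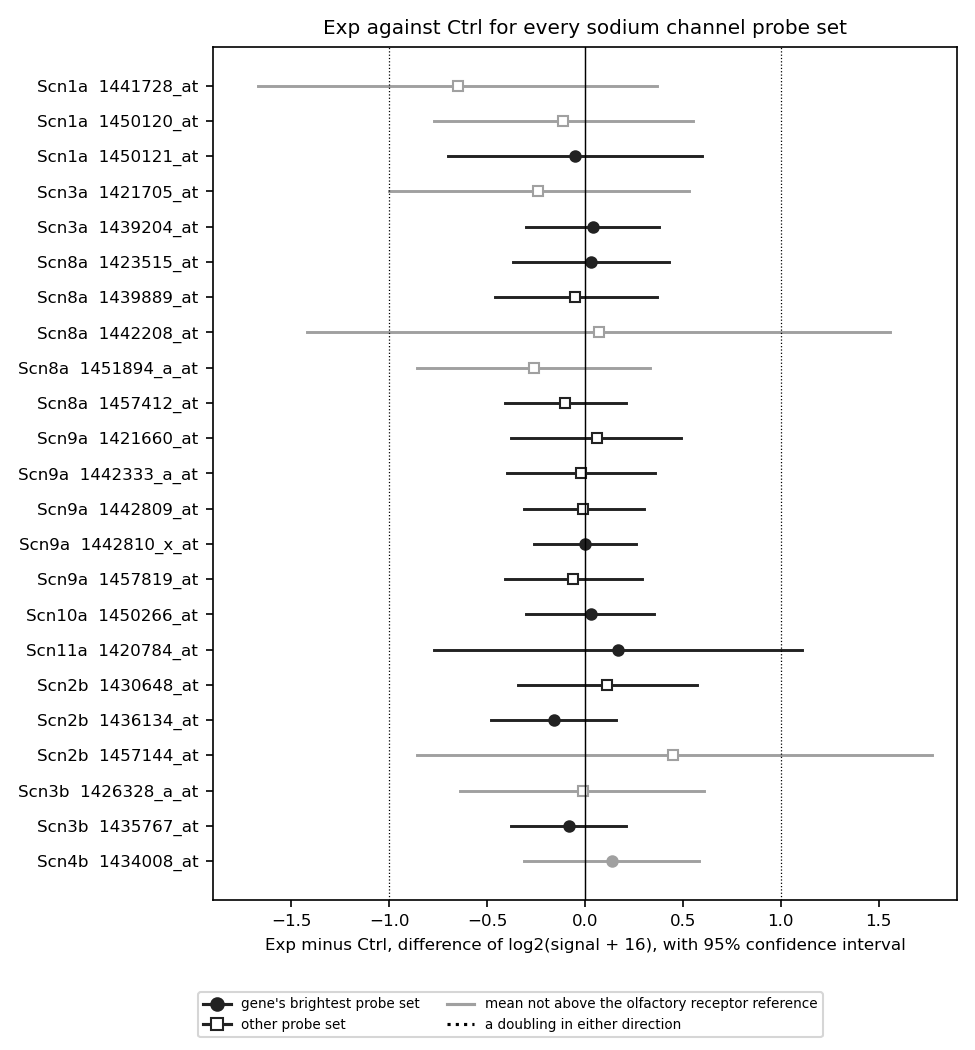
The difference between Exp and Ctrl (x axis, log2(signal + 16), bars for the 95% confidence interval from limma, 4 arrays per group) for each of the 23 sodium channel probe sets (y axis). Filled circles are each gene's brightest probe set, open squares the others, grey marks those whose mean was not above the olfactory receptor reference, and dotted lines mark a doubling and a halving. Every interval includes 0, and the widest belong to grey probe sets such as 1457144_at of Scn2b.

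The alpha subunit Scn9a, Nav1.7, sets the firing threshold of nociceptors, and its loss abolishes pain sensation in people. It had 5 probe sets, all above the reference. In its brightest, 1442810_x_at, the Ctrl arrays read 14.41, 14.45, 14.43 and 14.44 in order of their numbers, and the Exp arrays 14.50, 14.51, 14.22 and 14.52. The Ctrl values were nearly equal, and 3 of the Exp arrays lay just above them while Exp 3 lay below all others. The log2 difference was 0.00 (SE 0.11, limma, 95% interval -0.26 to 0.26), with means of 14.43 ± 0.02 for Ctrl and 14.44 ± 0.15 for Exp (SD, 4 arrays each). Without Exp 3 the difference was 0.08 and the groups no longer overlapped, but in that smaller comparison 5.86% of all probe sets did not overlap either. The neighbouring probe set 1442809_at, designed from the same transcript sequence per the platform annotation, differed by -0.01 (SE 0.13).

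The other Scn9a probe sets gave differences of the same small size with another order of arrays. For 1442333_a_at the Ctrl arrays read 13.68, 13.65, 13.50 and 13.44 and the Exp arrays 13.22, 13.43, 13.63 and 13.91. Exp 1 was the lowest and Exp 4 the highest of all 8 arrays, so the spread lay within the Exp group, and the difference of the means was -0.02 (SE 0.16). For 1457819_at the values were 12.64, 12.68, 12.44 and 12.44 in Ctrl and 12.25, 12.32, 12.66 and 12.75 in Exp, again with Exp 1 lowest and Exp 4 highest, for a difference of -0.06 (SE 0.15). The dimmest, 1421660_at, ran from 9.96 to 10.56 in Ctrl and from 10.16 to 10.74 in Exp and differed by 0.06 (SE 0.19). Its highest array was Exp 3, the array that was lowest for 1442810_x_at.

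Scn8a, Nav1.6, is the channel of the axon initial segment and the node of Ranvier. Its brightest probe set, 1423515_at, read 11.91, 12.36, 12.11 and 11.97 in Ctrl and 12.29, 12.21, 11.72 and 12.26 in Exp. The Exp arrays other than Exp 3 lay within the range of Ctrl, and Exp 3 lay below it. The difference was 0.03 (SE 0.17, 95% interval -0.37 to 0.43), and its sign turned with median centring (-0.05). The probe sets 1457412_at and 1439889_at differed by -0.10 (SE 0.13) and -0.05 (SE 0.18). The remaining probe sets of the gene, 1451894_a_at at -0.26 (SE 0.26) and 1442208_at at 0.07 (SE 0.65), were not above the reference, and the latter ran from 5.67 to 7.93 within Ctrl alone.

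Scn1a, Nav1.1, is found mainly in larger, myelinated sensory neurons, and Scn3a, Nav1.3, is a channel of embryonic and of injured neurons. For Scn1a, 1450121_at read 10.54, 10.93, 10.20 and 9.69 in Ctrl and 10.52, 10.57, 10.12 and 9.94 in Exp. Every Exp value fell inside the range of Ctrl, and the difference was -0.05 (SE 0.28, 95% interval -0.70 to 0.60). Leaving out Ctrl 4 gave -0.27 and leaving out Ctrl 2 gave 0.14. Its other probe sets, 1450120_at at -0.11 (SE 0.28) and 1441728_at at -0.65 (SE 0.44), were not above the reference, and the value of 1441728_at, the most negative of the family, was -0.24 without Exp 3, which alone stood at 5.69.

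For Scn3a, 1439204_at read 12.82, 12.93, 12.72 and 12.58 in Ctrl and 13.06, 12.88, 12.53 and 12.74 in Exp. The groups overlapped, with Exp 1 the highest array and Exp 3 the lowest. The difference was 0.04 (SE 0.15, 95% interval -0.30 to 0.38), or -0.03 with median centring, which turned its sign. The dim 1421705_at differed by -0.24 (SE 0.33).

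Scn10a and Scn11a encode Nav1.8 and Nav1.9, the tetrodotoxin-resistant channels of nociceptors, and each had 1 probe set. Scn10a read 9.70, 9.84, 9.72 and 9.98 in Ctrl and 9.99, 9.93, 9.90 and 9.53 in Exp, which is a deposited signal of 819 to 964 in Ctrl and 748 to 1050 in Exp. Exp 4 was the lowest array and the other Exp arrays lay at or just above the upper part of the Ctrl range. The difference was 0.03 (SE 0.14, 95% interval -0.30 to 0.35). Scn11a read 9.83, 11.06, 9.75 and 9.01 in Ctrl and 10.10, 10.50, 9.67 and 10.06 in Exp. Ctrl 2 and Ctrl 4 marked the top and the bottom of all 8 arrays. The Ctrl standard deviation was 0.85 and the Exp one 0.34, and the difference of 0.17 (SE 0.41) had the widest interval of any brightest probe set, -0.77 to 1.11, or 0.584 to 2.16 as a fold. It was 0.55 without Ctrl 2, -0.13 without Ctrl 4 and 0.03 without Exp 2, so its size and its sign depended on single arrays.

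**Figure D2:**
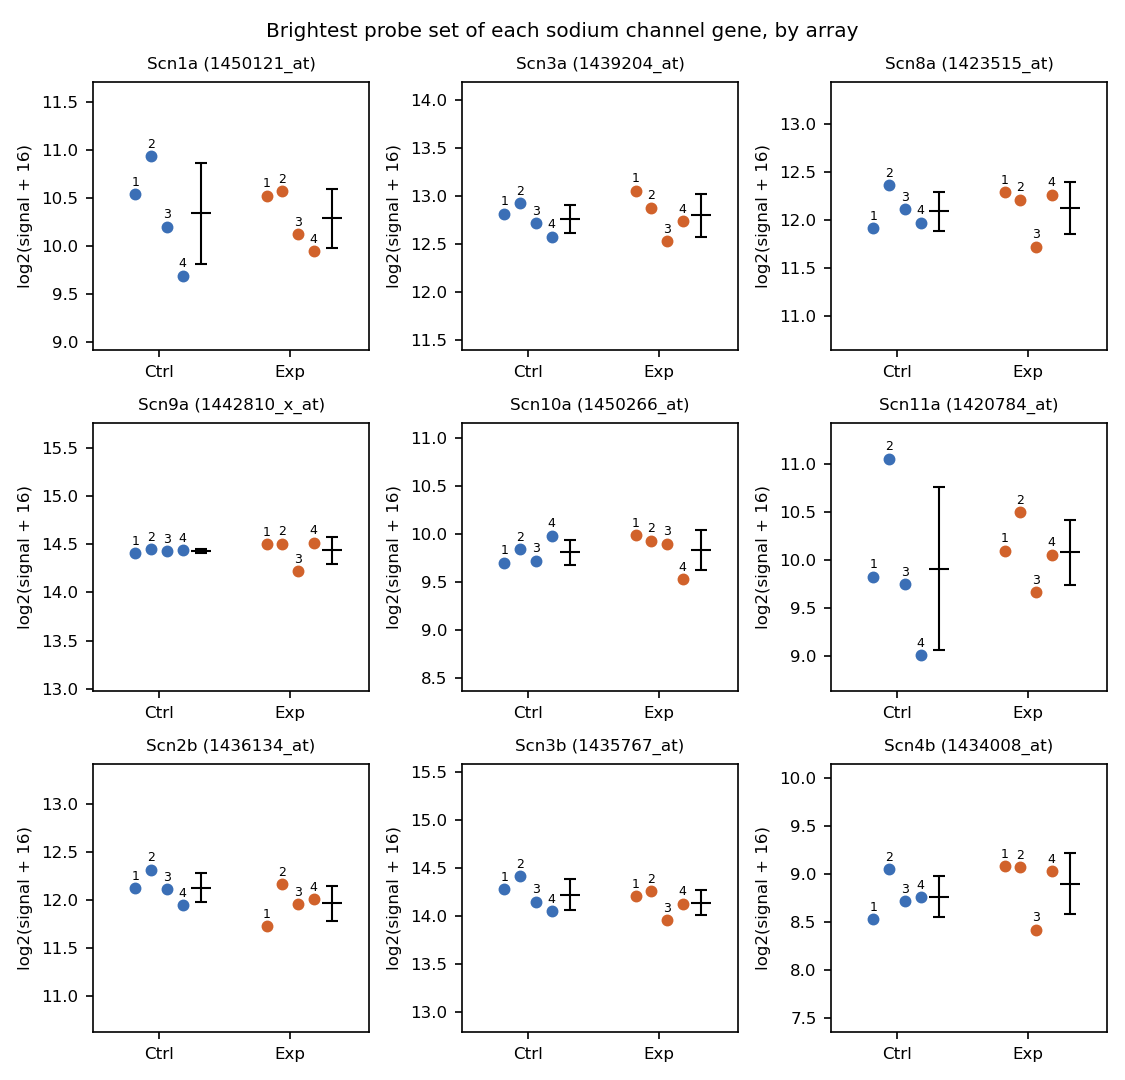
Signal (y axis, log2(signal + 16), quantile-normalized, an equal span in each panel) of the brightest probe set of each of the 9 genes in the 4 Ctrl and 4 Exp arrays (x axis). Numbers mark the array within its group, and bars give the mean and SD. The groups overlap in every panel, Scn9a has the tightest Ctrl values (SD 0.02), and Scn11a the widest (SD 0.85).

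Among the beta subunits, those of Scn2b and Scn4b are bound to the alpha subunit by a disulfide bridge, and that of Scn3b is bound without one. Scn3b, in 1435767_at, read 14.28, 14.42, 14.15 and 14.05 in Ctrl and 14.21, 14.26, 13.96 and 14.13 in Exp. Ctrl 2 was highest and Exp 3 lowest, and the difference was -0.08 (SE 0.13, 95% interval -0.38 to 0.21). The other Scn3b probe set, 1426328_a_at, was not above the reference and differed by -0.01 (SE 0.27).

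Scn2b, in 1436134_at, read 12.13, 12.32, 12.12 and 11.95 in Ctrl and 11.73, 12.17, 11.96 and 12.01 in Exp. Its difference of -0.16 (SE 0.14, 95% interval -0.48 to 0.16, limma, adjusted p = 0.997) lay within the spread of the arrays. The probe set 1430648_at of the same gene differed by 0.11 (SE 0.20). The third, 1457144_at, was not above the reference and differed by 0.45 (SE 0.57), and by -0.17 without Ctrl 2, which read 6.41 where all other arrays read 8.39 to 9.03.

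Scn4b, whose protein tail is known as the blocking particle behind resurgent sodium current, had 1 probe set, and its mean of 8.83 was not above the reference. It read 8.53, 9.05, 8.72 and 8.76 in Ctrl and 9.08, 9.07, 8.42 and 9.03 in Exp. Except for Exp 3, the lowest array, the Exp values stood at or near the top of the Ctrl range, and the difference was 0.14 (SE 0.19, 95% interval -0.31 to 0.58), or 0.30 without Exp 3. Probe sets bind with different strength, so the reference says only that the signal resembled that of genes a ganglion is not known to express.

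Within a gene, probe sets were compared by the difference between their signals on each array. Over the 28 pairs of probe sets in the 6 genes with several, no difference between Exp and Ctrl passed an exact two-sided permutation test of the 70 orders of arrays with Benjamini-Hochberg adjustment (smallest adjusted p = 0.971, 4 arrays per group). The smallest unadjusted value was 0.229, for the 2 brightest probe sets of Scn2b, which differed by -0.27. With 4 arrays per group the smallest p that this test can give is 0.0286, so no single pair could have passed after adjustment over 28, and the count of 0 says nothing about agreement.

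Across the arrays, regardless of group, the subunits did vary together in part. The Pearson correlation between the brightest probe sets of 2 members over 8 arrays was above 0 in 31 of 36 pairs, with a median of 0.54 and a range from -0.32 to 0.95. Over all pairs of 12763 genes the median was 0.00, with 5% below -0.63 and 5% above 0.64. The mean deviation of the 9 genes was highest in Ctrl 2, at 0.32, and lowest in Ctrl 4 and Exp 3, at -0.23 and -0.22. Exp 3 was the array with the most muscle marker signal and the lowest mean of glial markers. Its mean deviation was also the highest for epithelial markers (0.66) and for chromaffin and sympathetic markers (0.37), and the lowest for endothelial ones (-0.30). In Ctrl 4 the mean deviation was -0.28 for muscle, 0.11 for glial and -0.14 for epithelial markers. It was -0.06 there for chromaffin and sympathetic markers and 0.27 for endothelial ones. The part of those other tissues in the channel values was not tested. The sensory neuron markers had a mean deviation of 0.03 in Exp 3, of -0.02 in Ctrl 4 and of 0.19 in Ctrl 2.

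**Figure D3:**
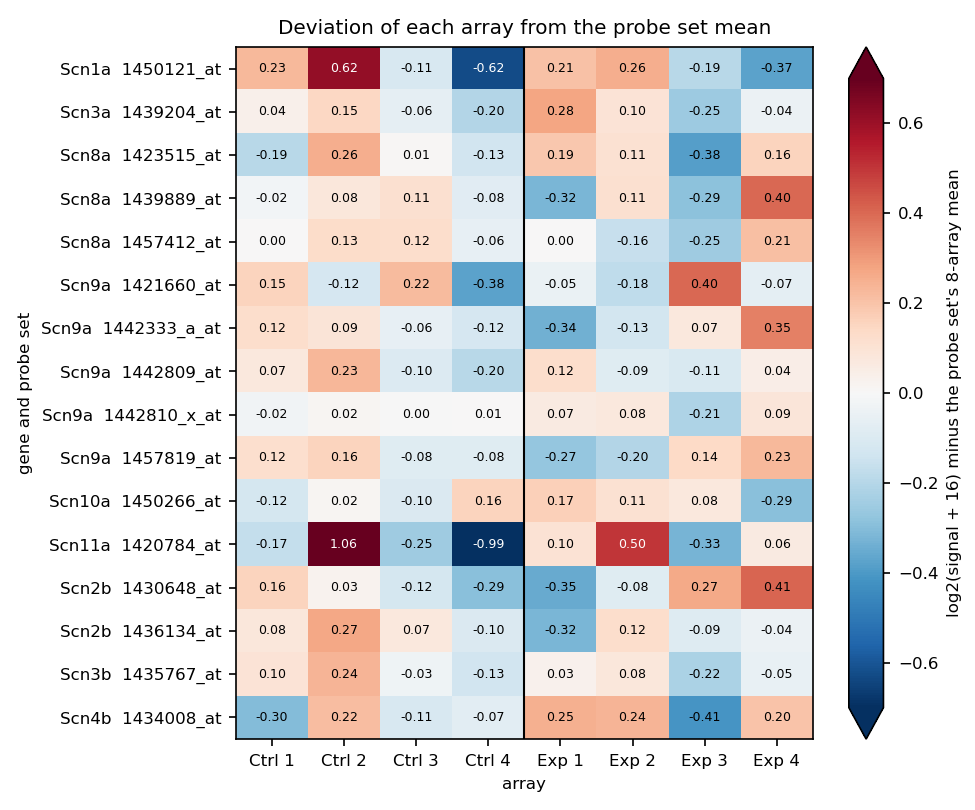
Deviation of each array (x axis) from the 8-array mean of the probe set, in log2(signal + 16) (colour and printed values), for the 15 sodium channel probe sets above the olfactory receptor reference and the only one of Scn4b (y axis). Ctrl 2 is mostly above and Ctrl 4 mostly below the mean, while 1442333_a_at and 1457819_at of Scn9a share another pattern, with Exp 1 low and Exp 4 high.

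Of 64 relations tested over the 8 arrays, chosen after the values had been seen, 3 passed an exact permutation test with Benjamini-Hochberg adjustment for Pearson's r. Scn8a 1423515_at followed Scn4b (r = 0.95, exact p = 0.000942, adjusted p = 0.0201, Spearman's rho 0.86, exact p = 0.0107, adjusted p = 0.139). Scn9a 1442810_x_at followed Scn4b (r = 0.85, exact p = 0.000496, adjusted p = 0.0201, rho 0.83, exact p = 0.0154, adjusted p = 0.139). Scn9a 1442333_a_at followed Scn9a 1457819_at (r = 0.94, exact p = 0.00067, adjusted p = 0.0201, rho 0.90, exact p = 0.00456, adjusted p = 0.139). No rank correlation passed after adjustment. Without the 2 arrays farthest from the median of the first probe set, r was 0.84, 0.87 and 0.94. In the first and second relation Exp 3 was the lowest array for both genes, and Scn4b was not above the reference. Without Exp 3 the unadjusted exact permutation p was 0.00754 for Scn8a with Scn4b and 0.0323 for Scn9a with Scn4b. Points share the scaling of their array.

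**Figure D4:**
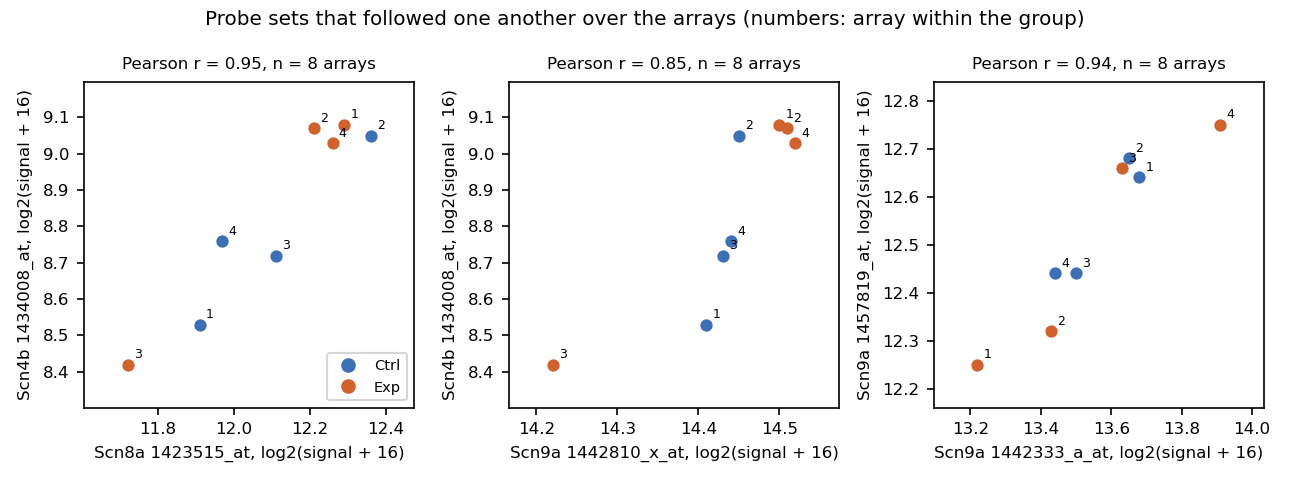
Signals of 3 pairs of sodium channel probe sets, 1 point per array (log2(signal + 16) on both axes, numbers for the array within its group, blue for Ctrl and orange for Exp). Pearson's r over 8 arrays is 0.95, 0.85 and 0.94, Exp 3 is the lowest point in the first and second panel, and Exp 1 and Exp 4 are the ends of the third.

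By contrast, 1442333_a_at and 1442810_x_at, both of Scn9a, had r = -0.13 (exact permutation p = 0.713, rho -0.12, exact permutation p = 0.793), and 1421660_at and 1442810_x_at had r = -0.71 (exact permutation p = 0.0435, adjusted p = 0.232, rho -0.62, exact permutation p = 0.115). The probe sets of Scn9a thus did not all share one order of arrays. Whether each of them, 1442810_x_at included, reads Scn9a transcripts alone was not tested. For the 3 Scn8a probe sets above the reference, r was 0.65 for 1423515_at with 1457412_at and 0.45 for 1423515_at with 1439889_at. It was 0.66 for 1457412_at with 1439889_at, and these Scn8a correlations were not tested. The ratio of the 3' to the 5' signal of the Gapdh control, a gauge of RNA integrity and labelling, ran from 14.6 in Ctrl 4 to 20.7 in Ctrl 1. Its correlation with the brightest probe set was 0.75 for Scn1a (exact permutation p = 0.0321, adjusted p = 0.187, rho 0.51, exact permutation p = 0.206) and 0.56 without Ctrl 1 and Ctrl 4. For Scn11a it was 0.67 (exact permutation p = 0.066, rho 0.35), for Scn3b 0.66 (exact permutation p = 0.0682, rho 0.60) and for Scn9a -0.07 (exact permutation p = 0.827, rho -0.16). For Scn2b r was 0.63 (exact permutation p = 0.0894), rho 0.73 (exact permutation p = 0.0448, adjusted p = 0.173), and r was 0.84 without Ctrl 1 and Ctrl 4. For Scn10a r was -0.48 (exact permutation p = 0.233), rho -0.83 (exact permutation p = 0.0143, adjusted p = 0.139), and r was -0.15 without Ctrl 1 and Ctrl 4. The same ratio for the actin control was 22, 20.3, 20.3 and 19.8 in Ctrl 1 to Ctrl 4. It was 20.9, 25.5, 23 and 24.5 in Exp 1 to Exp 4, so the Exp arrays other than Exp 1 lay above every Ctrl array. The part of this in the group comparison was not tested. In every array of both groups the 3' signal of each control was many times its 5' signal, at least 14.6 times for Gapdh and 19.8 times for actin. The part of a probe set's distance from the 3' end in low signals was not tested. Nor was its part in differences between probe sets of a gene. None of the relations with the Gapdh or the actin ratio passed after adjustment.

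The sequences before the start sites of Scn8a, Scn4b and Scn9a are shown because the brightest probe sets of Scn8a and Scn9a each followed that of Scn4b. The correlation of Scn8a with Scn9a itself did not pass (r = 0.84, exact permutation p = 0.00769, adjusted p = 0.082, rho 0.76, exact permutation p = 0.0368, and r = 0.47 without Ctrl 1 and Exp 3). RefSeq's promoter table held 7 of the 9 genes, in 8 windows. Each line gives 250 bases before the annotated start, 5' to 3' on the gene's strand. Capitals mark matches, on either strand, to 6 motifs: the E-box CANNTG of basic helix-loop-helix factors, the homeodomain core TAATTA, the POU octamer ATGCAAAT, the TATA box TATAAA, the CCAAT box CCAAT and the GC box GGGCGG. Scn8a is given at its upstream start.
Scn8a (GRCm38.p6, chr15:100870395-100870644, plus strand): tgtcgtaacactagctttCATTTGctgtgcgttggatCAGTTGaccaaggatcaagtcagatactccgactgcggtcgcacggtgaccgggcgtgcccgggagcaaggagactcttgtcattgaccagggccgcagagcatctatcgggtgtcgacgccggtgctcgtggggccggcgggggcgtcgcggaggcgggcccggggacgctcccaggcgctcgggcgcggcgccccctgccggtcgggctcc
Scn4b (GRCm38.p6, chr9:45138374-45138623, plus strand): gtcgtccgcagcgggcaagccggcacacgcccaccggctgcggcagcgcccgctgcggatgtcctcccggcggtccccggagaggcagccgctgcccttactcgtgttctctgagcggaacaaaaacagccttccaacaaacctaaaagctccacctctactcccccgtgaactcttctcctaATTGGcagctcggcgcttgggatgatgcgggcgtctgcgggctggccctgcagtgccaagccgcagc
Scn9a (GRCm38.p6, chr2:66634963-66635212, minus strand): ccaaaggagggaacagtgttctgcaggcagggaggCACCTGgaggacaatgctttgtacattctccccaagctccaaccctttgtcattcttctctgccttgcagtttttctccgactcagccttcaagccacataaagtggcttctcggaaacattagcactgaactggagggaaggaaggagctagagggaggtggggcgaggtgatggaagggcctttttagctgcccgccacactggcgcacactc

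In these windows Scn8a held 2 E-box matches and Scn9a 1, and Scn4b held a CCAAT box on the opposite strand, 1 match. No motif was shared by all of them. GC content was 68% for Scn8a, 66% for Scn4b and 54.4% for Scn9a, against a median of 52.4% over 32851 promoter windows. The other Scn8a window, at its downstream start, had 53.2% and held no match to any of the motifs. An E-box occurred in 5 of the 8 member windows and in 66.2% of all windows, and a CCAAT box in 2 of 8 and in 33.8%. The TATA box, the homeodomain core, the octamer and the GC box had no match in any member window, where 12.4%, 4.84%, 1.6% and 32.7% of all windows held one. A match is a description of letters and not a binding site.

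The genes whose brightest probe set most resembled each member over the 8 arrays, among 12762 others, were the sodium channel gene Scn2a for Scn1a (r = 0.97), Cacnb4 for Scn3a (0.97), Irgm1 for Scn9a (0.99), Eif2a for Scn10a (0.97), Gabra2 for Scn11a (0.99), Tln2 for Scn2b (0.96) and Mme for Scn3b (0.96). Donson was most alike for both Scn8a (0.96) and Scn4b (0.97). The median of the best correlation that any gene had with another was 0.97, so these values are those of a typical gene.

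Genes of the same channel complexes outside the 9 members behaved alike in the group comparison. Of 20 measured partner genes, which anchor, move or modify sodium channels, 12 were higher and 8 lower in Exp, with a median log2 difference of 0.02. In limma 0 of the 20 passed and 1 gene had an unadjusted p below 0.05, as 4.93% of all probe sets did. That gene was Ank3, ankyrin-G, the scaffold that clusters sodium channels at the axon initial segment. Its brightest probe set, 1452124_at, read 14.82, 14.80, 14.60 and 14.56 in Ctrl and 14.02, 13.80, 14.07 and 14.58 in Exp. The Exp arrays other than Exp 4 lay below every Ctrl array, and Exp 4 lay within the Ctrl range. The difference of -0.57 (SE 0.18, limma, adjusted p = 0.997) was not shared by the gene's 5 other probe sets, which ran from -0.04 to 0.21, with 4 of them higher in Exp. Scnm1, a splicing factor named for modifying Scn8a mutations, differed by -0.59 (SE 0.31), Sptbn4, a spectrin of the node, by 0.28 (SE 0.15) and Nfasc, neurofascin, by 0.12 (SE 0.11).

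The other sodium channel genes analysed here were Scn2a and Scn7a, which differed by 0.04 (SE 0.17) and 0.07 (SE 0.14), the former with its sign turned by median centring (-0.03). Of 6 sodium leak channel and pump genes, 5 were higher in Exp, 0 passed in limma and 0 had an unadjusted p below 0.05. Atp1b3, a pump beta subunit, differed by 0.15 (SE 0.11), Unc79, a part of the leak channel complex, by 0.28 (SE 0.26), Atp1b2 by 0.11 (SE 0.18) and the leak channel Nalcn by -0.08 (SE 0.13).

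Per RefSeq, 5 of the 9 members lie on chromosome 9 and 3 on chromosome 2, several of them side by side. The brightest probe sets of the 5 on chromosome 9 had a median difference of 0.03. The nearest measured genes that flank the members numbered 13, of which 0 passed in limma and 0 had an unadjusted p below 0.05, with differences from -0.45 to 0.13. The lowest was Cobll1 (-0.45, SE 0.22), and the flanks of the adjoining Scn10a and Scn11a were Exog (-0.02, SE 0.15) and Wdr48 (0.07, SE 0.14).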

How the data were processed

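Total RNA was measured on 8 arrays, 4 Ctrl and 4 Exp, grouped by the sample titles. The deposited values are linear intensity values per probe set. The software behind them is not stated in the labels. In that table every array has a mean of 2500 without the lowest and highest 2%, as scaling gives, so differences are relative to the bulk of probe sets. The 64 control probe sets were left out. Values were taken as log2(signal + 16) and quantile-normalized, and the groups were tested with limma 3.58.1 under R 4.3.3 (lmFit, eBayes, two-sided, Benjamini-Hochberg over 45037 probe sets, 5% false discovery rate), with no filter on low signals. A fold is that of signal + 16 and understates changes of low signals. The fit was tested on simulated data.

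Names came from the platform annotation, updated by Entrez identifier through RefSeq (GRCm38.p6). Of the probe sets, 34945 had 1 name, 932 several and 9160 none, and 34741 matched. Where 1 probe set stands for a gene it is the one with the highest mean. The named genes were all members, the most alike gene of each, flanking genes and the 4 list genes with the smallest p. The members and lists were chosen with earlier results of these data known. A planned comparison of protein sequences was not made. Alternatives were pseudocounts of 1, 64 and 256, filters at the 40th and 60th percentile, other scalings, and the number as a block. Others were the Eif2s3y signal as a covariate, array weights, trend and robust options, means over probe sets, and arrays left out. Correlations were tested over all 40320 orders of the arrays. Promoter sequences are RefSeq's.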

Additional observations from a re-analysis of the deposited data

Results flagged for a closer look

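In each group of 4 arrays, a value was singled out where its distance from the nearest of the others, as a share of the whole range, was above Dixon's 95% limit. This held for 5 of the 46 groups of member values, where chance gives about 2.3. Exp 3 lay apart in Scn8a 1423515_at, at 11.72 with the others at 12.21 to 12.29, in Scn9a 1442810_x_at, at 14.22 with the others at 14.50 to 14.52, and in Scn4b 1434008_at, at 8.42 with the others at 9.03 to 9.08. These are the genes whose arrays correlated, so the 3 values are not independent of each other. Exp 3 also had the highest skeletal muscle markers (1.46 above the 8-array mean) and the lowest mean of glial ones (-0.47, or -0.20 without Egr2). The means of epithelial markers (0.66) and of chromaffin and sympathetic markers (0.37) were also highest there, and that of endothelial markers (-0.30) lowest. The part of any of these tissues in the channel values was not tested. Exp 2 lay apart in Scn3a 1421705_at, at 6.60 with the others at 7.63 to 7.66, and Ctrl 2 in Scn2b 1457144_at, at 6.41 with the others at 8.89 to 8.94, both in probe sets not above the olfactory receptor reference.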

How the results depend on the processing

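No member and no partner probe set passed limma's test in the main comparison or in any of the alternatives run. The test between probe sets of a gene could not pass for a single pair in any setting and is no measure of stability. Of 456 member values recomputed, 405 kept their sign (or came to 0) and 51 changed it. Of the 23 probe sets, 6 had no counted change, and of 257 values of 13 other named genes 247 kept their sign. Among the 6 was Scn9a 1442810_x_at, whose main value rounds to 0.00, so that no change of sign could be counted for it. Its values included -0.04 with median centring and 0.08 without Exp 3. The number of all probe sets that passed was 0 in the main comparison, 1 with the filter at the 40th percentile, 1 with trend and robust options, and between 0 and 2 over the fits without 1 array, with 2 without Exp 2; none was a member. The labels do not say what arrays with the same number, 1 to 4, share. The correlations of same-numbered deviations from the group means were 0.02, 0.05, -0.07 and -0.12. With 4 arrays per group these cannot decide whether the numbers pair the arrays. With the number as a block 0 members and 0 probe sets in all passed. The count of members whose groups did not overlap was 0 to 1 over the fits without 1 array (1, Scn9a 1442810_x_at, without Exp 3) and 1 without both Exp 2 and Exp 3, settings in which 5.86% and 13.3% of all probe sets did not overlap. The 3 correlations were recomputed, as alternatives added after the data were seen, with other pseudocounts and scalings and without each array. Only the unadjusted exact permutation p was computed there. It was at most 0.0323, for Scn9a with Scn4b without Exp 3, and 0.0178 for the same pair with median centring, a size that with all arrays did not pass the adjustment over 64 relations. Over the arrays left out, r ran from 0.91 to 0.97 for Scn8a with Scn4b, 0.83 to 0.91 for Scn9a with Scn4b and 0.90 to 0.96 for the pair of Scn9a probe sets.

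Values that changed sign, none past the threshold, were as follows. Without both Exp 2 and Exp 3 they were 0.20 for Scn1a 1450120_at, 0.02 for Scn3a 1421705_at, 0.01 for Scn8a 1439889_at, 0.06 for Scn8a 1457412_at, -0.03 for Scn9a 1421660_at, 0.08 for Scn9a 1442809_at, -0.05 for Scn10a 1450266_at, -0.06 for Atp1b2 1435148_at. With median centring they were -0.03 for Scn3a 1439204_at, -0.05 for Scn8a 1423515_at, -0.03 for Scn2a 1435933_at. With array weights they were 0.01 for Scn1a 1450121_at, 0.01 for Scn9a 1442809_at, 0.02 for Scn3b 1426328_a_at. Without quantile normalization the value was 0.05 for Scn3b 1426328_a_at, and with Eif2s3y as a covariate 0.05 for Scn3b 1426328_a_at. When the probe sets of each gene were averaged they were -0.10 for Scn3a 1439204_at, -0.06 for Scn8a 1423515_at, 0.14 for Scn2b 1436134_at. Over the fits without 1 array the ranges were -0.12 to 0.06 for Exog 1436022_at, -0.03 to 0.13 for Scn10a 1450266_at, -0.13 to 0.55 for Scn11a 1420784_at, -0.27 to 0.08 for Scn1a 1450120_at, -0.27 to 0.14 for Scn1a 1450121_at, -0.07 to 0.14 for Scn2a 1435933_at, -0.17 to 0.67 for Scn2b 1457144_at, -0.44 to 0.03 for Scn3a 1421705_at, -0.05 to 0.13 for Scn3a 1439204_at, -0.21 to 0.20 for Scn3b 1426328_a_at, -0.03 to 0.14 for Scn7a 1436044_at, -0.03 to 0.16 for Scn8a 1423515_at, -0.19 to 0.05 for Scn8a 1439889_at, -0.32 to 0.48 for Scn8a 1442208_at, -0.07 to 0.14 for Scn9a 1421660_at, -0.14 to 0.09 for Scn9a 1442333_a_at, -0.07 to 0.07 for Scn9a 1442809_at, -0.14 to 0.03 for Scn9a 1457819_at, -0.03 to 0.12 for Wdr48 1443836_x_at. The cause was not tested. Low signal limits the 8 dim member probe sets. Of these, 1442208_at and 1457144_at had intervals that reached past a doubling, and those of 1442208_at, 1441728_at and 1421705_at reached past a halving. The files give no detection call.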
